A study of Homo sapiens with 2 samples.

Results

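The genes described here encode the subunits of the nuclear RNA polymerases I, II and III. They were taken as every row of the count table whose symbol is POLR1, POLR2 or POLR3 followed by letters and an optional number, whatever their values, which gave 33 of 19927 genes. The libraries are poly(A)-selected RNA-seq of Huh7, an established human hepatocellular carcinoma line, harvested 48 h after the medium was replaced. The DMSO group, the solvent control, is 1 library. The homochlorcyclizine group, treated with the dihydrochloride salt of this antihistamine, is also 1 library, and none of the labels states the dose. The comparison asks which polymerase mRNAs differ between the treated and the control culture. With 1 library per group a test between conditions cannot be made, and every difference below is between these 2 libraries.

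Polymerase I transcribes the ribosomal RNA precursor in the nucleolus. Polymerase II transcribes messenger RNAs, and polymerase III transcribes transfer RNAs, 5S ribosomal RNA, U6 and other small RNAs. Each enzyme is built around a pair of large catalytic subunits and has smaller subunits of its own, while several small subunits are common to all the enzymes and a pair of assembly subunits is common to I and III. The genes are therefore given in classes of subunits private to an enzyme and classes of shared ones. Of the 33 genes, 5 encode subunits of all 3 enzymes, 2 encode subunits of I and III, 6 are private to I, 7 to II and 10 to III. The remaining 3 genes are the POLR2J copies POLR2J2 and POLR2J3 and POLR2M, which encodes a polymerase II-associated factor.

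Both libraries were deep enough for all of these genes to be counted, at 38133894 counts in the DMSO and 40791119 in the homochlorcyclizine library, and the members had between 20 and 9960 counts. The hepatocyte markers were high in both libraries, with ALB at 2300 and 2209 FPKM and AFP at 5013 and 3619 FPKM (fragments scaled to gene length and library total). Their ratios of treated to control lay on both sides of 1, with AFP at 0.725, KRT8 at 0.830, APOB at 1.44 and SERPINA1 at 1.34. Of 16 markers of fibroblasts, endothelium and blood, 10 were below the filter on level, among them COL1A2 and KDR with 0 counts in both libraries and PTPRC with 2 and 6. COL3A1 of the fibroblast list was below the filter too, with 43 and 5 counts and a ratio of 0.109 (0.0337 to 0.275). The other 6 passed the filter. Of the fibroblast list, LUM was at 7.99 and 10.2 FPKM, COL1A1 had 321 and 363 counts and PDGFRB was at 0.197 and 0.297 FPKM, with ratios of 1.28, 1.06 and 1.51. The endothelial marker PECAM1 was at 1.73 and 0.831 FPKM, a ratio of 0.482. Of the blood list, LYZ was at 300 and 353 FPKM (ratio 1.18) and CD14 at 2.52 and 1.57 FPKM (ratio 0.624). The part of these markers in the results was not tested.

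Across the polymerase genes the treated library was lower in most members, by a modest amount. Of the 30 genes in the subunit classes, 26 had a ratio of treated to control below 1, against 51.1% of the 12353 genes whose mean level over both libraries reached 1 CPM (CPM is a count scaled to the library size, and this filter was used throughout). The 95% counting interval lay wholly below 1 for 25 of the 30 genes (all genes 40.0%) and wholly above 1 for 2 (all genes 37.8%). It held 1 for 3 (all genes 22.2%). Whether an interval excludes 1 also depends on the count, and the median level of the 30 was above that of all genes. In the DMSO library these median levels were 18.2 and 9.61 FPKM. The median log2 ratio of the 30 was -0.35, a ratio of 0.785, where the median over all genes was -0.01. In bulk RNA, fewer cells expressing a gene and less of its RNA per cell cannot be told apart. Intervals throughout cover counting error only and not the spread between cultures.

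Large differences were few. A gene was called lower or higher when its ratio passed 2-fold and its interval excluded 1. Of the 32 members that passed the filter of 1 CPM, 3 (9.38%) were called lower, POLR3G, POLR3K and POLR1G, where 5.10% of all tested genes were. None was called higher, where 5.81% of all tested genes were. At 1.5-fold, 7 (21.9%) were lower (all tested genes 14.1%) and none was higher (all tested genes 14.0%), the additional 4 being POLR2L, POLR1E, POLR1F and POLR3B. The member below the filter is POLR2J2. These shares rest on few genes and are a description.

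**Figure D1:**
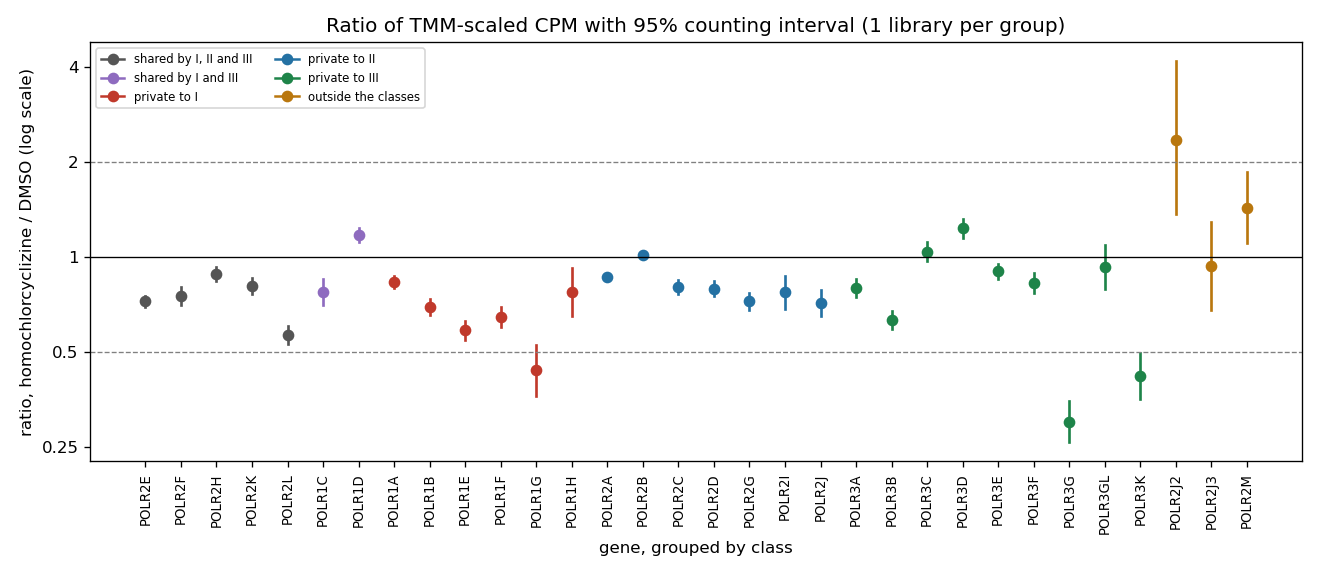
Ratio of TMM-scaled CPM in the homochlorcyclizine library over the DMSO library (vertical log axis) for 32 of the genes, grouped and coloured by class. Points are ratios, bars are 95% counting intervals, and dashed lines mark 2-fold. POLR3G, POLR3K and POLR1G lie below the lower dashed line, and the intervals of POLR1D, POLR3D, POLR2M and POLR2J2 lie above 1.

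The promoters of POLR1G and POLR3K, which with POLR3G are the called members, and of POLR3GL, the counterpart of POLR3G whose interval held 1, are shown for context. Each runs from 250 bases before to 50 bases after the gene's start, 5′ to 3′ on the gene's strand, from RefSeq on GRCh38.p14. Capitals mark matches on either strand to the motifs searched.
POLR1G, chr19:45406394-45406693, plus strand: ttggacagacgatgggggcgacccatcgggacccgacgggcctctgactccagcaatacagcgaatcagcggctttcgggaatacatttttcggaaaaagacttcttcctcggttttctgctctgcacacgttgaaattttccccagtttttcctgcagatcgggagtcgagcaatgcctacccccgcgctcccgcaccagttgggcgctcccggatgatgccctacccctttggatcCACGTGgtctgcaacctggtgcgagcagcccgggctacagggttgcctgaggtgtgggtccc
POLR3K, chr16:53559-53858, minus strand: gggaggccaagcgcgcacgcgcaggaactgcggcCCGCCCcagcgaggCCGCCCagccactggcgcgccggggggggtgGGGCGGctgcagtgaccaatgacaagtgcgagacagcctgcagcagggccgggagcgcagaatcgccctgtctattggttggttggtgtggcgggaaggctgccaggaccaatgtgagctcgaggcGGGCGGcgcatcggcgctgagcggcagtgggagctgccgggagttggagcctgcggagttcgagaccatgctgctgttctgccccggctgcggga
POLR3GL, chr1:145964440-145964739, plus strand: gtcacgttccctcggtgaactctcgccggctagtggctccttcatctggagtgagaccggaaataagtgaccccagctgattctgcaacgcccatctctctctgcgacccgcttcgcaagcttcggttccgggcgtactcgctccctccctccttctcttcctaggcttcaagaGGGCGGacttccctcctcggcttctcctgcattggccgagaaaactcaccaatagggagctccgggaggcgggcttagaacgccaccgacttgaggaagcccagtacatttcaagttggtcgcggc

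The motifs searched were the E-box CACGTG, the GC box GGGCGG, the ETS core CCGGAAG, the E2F core TTTNGCGC, the TATA box TATAAA, the NRF1 core GCATGCG and the YY1 core ATGGCGG, each on both strands. None of these motifs is contained in another. The table held promoters of 24 members. POLR1G has an E-box that begins 12 bases before its start, POLR3K has GC boxes that begin 216, 202, 171 and 45 bases before it, and POLR3GL has 1 GC box. The E-box was in 4 of the 24 (POLR1G, POLR3A, POLR3C and POLR3E), 16.7%, against 10.2% of the 10134 promoters of tested genes and 7.43% of all 27305 promoters. The GC box was in 16 of 24 (66.7%, against 69.8% and 44.6%). The ETS core was in 9 of 24, 37.5%, against 19.4% of tested genes and 10.7% of all promoters. Its holders were POLR1B, POLR1C, POLR2C, POLR2D, POLR2F, POLR2J2, POLR2M, POLR3A and POLR3C. The called members POLR1G and POLR3K were not among them, and no promoter of POLR3G is shown here. The E2F core was in POLR1F and POLR3E (8.33%, against 3.08% and 1.83%). The NRF1 core was in POLR2F and POLR2J2 (8.33%, against 6.34% and 4.13%) and the YY1 core in POLR1C, POLR2H and POLR2L (12.5%, against 10.5% and 5.72%). The TATA box was in POLR2M alone (4.17%, against 5.77% and 12.0%). The ETS holders POLR2J2 and POLR2M are outside the subunit classes, and POLR2J2 is below the filter on level. With 24 promoters these shares rest on few genes and are a description. The motif hits are matches of letters and not bound sites.

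Median levels per length differed between the classes within each library, although single genes of the classes overlapped. In the DMSO library the median of the 5 subunits common to all enzymes was 57.8 FPKM and that of the polymerase II subunits 38.7 FPKM. The polymerase III subunits had a median of 11.1 and the polymerase I subunits one of 10.7 FPKM. The order of the first pair and the last pair was the same in the treated library, at 41.4 and 33.4 FPKM and at 8.26 and 8.04 FPKM. The highest single level was that of POLR2G at 73.9 FPKM in the DMSO library and of POLR2B at 57.6 FPKM in the treated library. Levels within polymerase II spanned 4.55-fold in the DMSO and 4.48-fold in the treated library, from POLR2D at the bottom to the top gene. The spread within polymerase III was 3.13-fold in the DMSO and 9.87-fold in the treated library, because the lowest level, that of POLR3G in both, was at 6.43 and then at 1.93 FPKM. Within polymerase I it was 8.36-fold and 11.2-fold, from POLR1G to POLR1E.

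**Figure D2:**
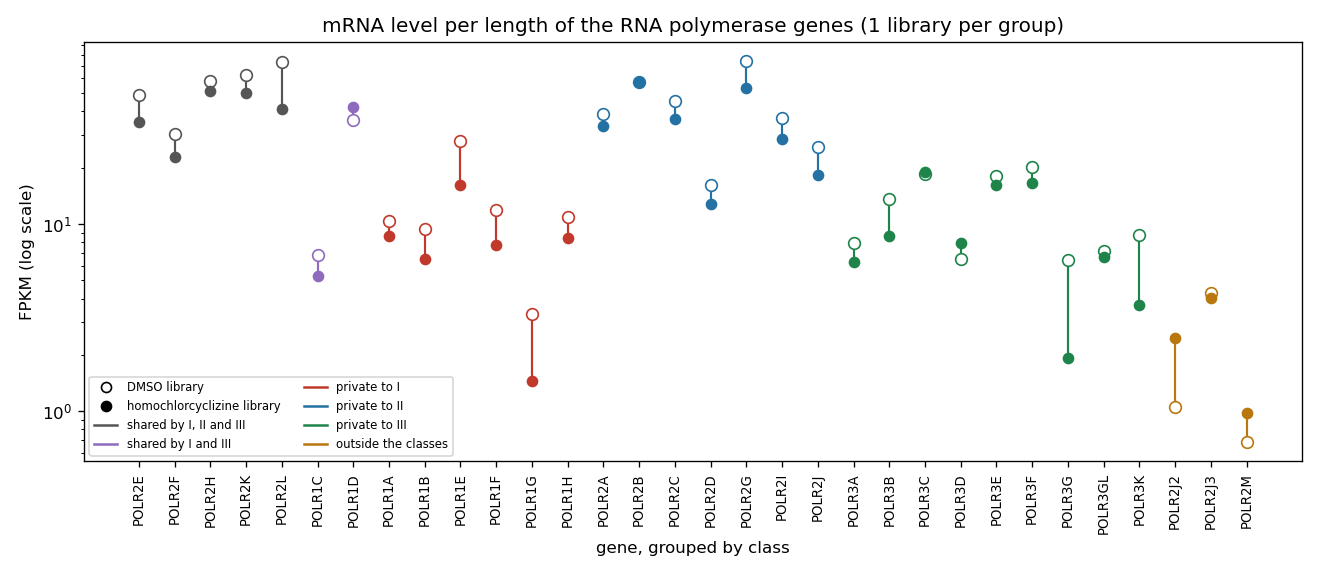
FPKM (vertical log axis) of 32 of the genes in the DMSO library (open circles) and the homochlorcyclizine library (filled circles), 1 library per group, joined by a line and coloured by class. The genes common to all enzymes and those of polymerase II lie mostly above those of polymerases I and III, and the longest downward lines are those of POLR3G, POLR3K and POLR1G.

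Polymerase I had the lowest class median among the private classes. All 6 genes were below 1 (all tested genes 51.1%). At 2-fold 1 was called lower (all tested genes 5.10%), and at 1.5-fold 3 were lower (all tested genes 14.1%). Counts from so few genes are a description. The median log2 ratio was -0.58, with a range from -1.19 to -0.26. The summed level of the 6 genes was 73.8 FPKM in the DMSO and 48.9 FPKM in the treated library. Relative to the summed level of the polymerase II subunits this was 0.251 in the DMSO and 0.204 in the treated library, while the same quotient for polymerase III was 0.410 in both.

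POLR1G encodes the polymerase I subunit that pairs with POLR1E in a dimer related to the factor TFIIF. It was at 3.32 FPKM (358 counts) in the DMSO and 1.45 FPKM (167 counts) in the treated library, a ratio of 0.438 (interval 0.362 to 0.528), the lowest of the class. Its gene (chromosome 19, 45406644 to 45410737, protein-coding) overlaps that of the repair nuclease ERCC1, and no label says whether the counting used strand. ERCC1 had a ratio of 1.16 (1.07 to 1.26), above 1 where POLR1G was below it. POLR1E (chromosome 9, 37485948 to 37503697) was at 27.8 FPKM in the DMSO and 16.2 FPKM in the treated library, a ratio of 0.586 (0.547 to 0.628). By these values POLR1G was at 0.120 of the POLR1E level per length in the DMSO and 0.0893 in the treated library. The share of reads from POLR1G and ERCC1 in their overlap cannot be told apart, which limits the values of POLR1G.

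POLR1F encodes the stalk subunit that contacts the initiation factor RRN3. It was at 11.9 FPKM in the DMSO and 7.68 FPKM in the treated library, a ratio of 0.647 (0.601 to 0.696). The catalytic subunits were nearer to 1. POLR1B, the second largest subunit, was at 9.44 and 6.52 FPKM (ratio 0.693, 0.654 to 0.735). POLR1A, the largest subunit (chromosome 2, 86020216 to 86105886), was at 10.4 and 8.67 FPKM (ratio 0.834, 0.801 to 0.869). POLR1H, the zinc-ribbon subunit that takes part in RNA cleavage, was at 10.9 and 8.39 FPKM (ratio 0.775, 0.652 to 0.921), with 298 and 246 counts behind it.

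Polymerase II was the most uniform private class. Of its 7 genes 6 were below 1 (all tested genes 51.1%). None passed 1.5-fold in either direction, where 14.1% of all tested genes were lower and 14.0% higher. The median log2 ratio was -0.33, with a range from -0.48 to 0.02. POLR2A encodes the largest subunit, whose repeated C-terminal tail is phosphorylated during transcription (chromosome 17, 7484366 to 7514616). It was at 38.7 FPKM (9960 counts) in the DMSO and 33.4 FPKM (9189 counts) in the treated library, a ratio of 0.866 (0.842 to 0.891). POLR2B, the second largest subunit (chromosome 4, 56978896 to 57031158), was at 57.1 and 57.6 FPKM, and its ratio of 1.01 (0.983 to 1.04) was the only one of the class whose interval held 1.

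The smaller polymerase II subunits lay close to each other, with ratios between 0.716 and 0.806. POLR2C, an assembly subunit related to bacterial alpha, was at 45.2 and 36.2 FPKM (ratio 0.806, 0.764 to 0.849). POLR2D and POLR2G form the stalk and had ratios of 0.795 (0.755 to 0.838) and 0.724 (0.680 to 0.772). POLR2I, the zinc-ribbon subunit, was at 36.9 and 28.4 FPKM (ratio 0.773, 0.687 to 0.870). POLR2J, the partner of POLR2C, had a ratio of 0.716 (0.652 to 0.786).

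Counts of POLR2J can be split with its copies, which lie near it on chromosome 7. Of the 31-base words in POLR2J transcripts of the GENCODE 29 annotation, 41.5% also occur in transcripts of other genes, and the share was 98.5% for POLR2J2 and 49.2% for POLR2J3. POLR2J2 had 20 counts in the DMSO and 50 in the treated library (ratio 2.35, 1.37 to 4.16) and POLR2J3 81 in each (ratio 0.939, 0.681 to 1.29). The summed counts of the 3 genes were 1141 and 924, a ratio of 0.760 (0.696 to 0.830). POLR2M, which encodes Gdown1, a factor that binds polymerase II, was at 0.683 and 0.973 FPKM (ratio 1.43, 1.11 to 1.86). It shares 20.7% of its words with other genes, mostly its neighbour GCOM1, so its value is uncertain too. Apart from these 4 genes, POLR2D, POLR3GL and POLR3K had between 13.3% and 15.6% of their words in other genes, and the other 26 members at most 7.77%. Overlap is a further limit, since 13 of the 33 genes overlap a protein-coding gene in RefSeq. Among those not named elsewhere, DOK4 (over POLR2C) and PPP1R11 (over POLR1H) had ratios above 1, at 1.19 and 1.14, and LRWD1 (over POLR2J) one of 0.830. C22orf23, over POLR2F, was at 3.21 with 84 and 287 counts, and IGFBP7, over POLR2B, at 3.02 with 32 and 103 counts.

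Polymerase III was the most uneven class. Of its 10 genes 8 were below 1 (all tested genes 51.1%) and 2 were called lower at 2-fold (all tested genes 5.10%). The median log2 ratio was -0.24, with a range from -1.73 to 0.30. POLR3G had the lowest ratio of all 33 genes. It encodes RPC7 alpha, a subunit of the trimer with POLR3C and POLR3F that serves initiation, and is known for high levels in stem cells and tumours. POLR3G (chromosome 5, 90473929 to 90514557) was at 6.43 FPKM (738 counts) in the DMSO and 1.93 FPKM (237 counts) in the treated library, a ratio of 0.301 (0.259 to 0.349). A share of 1.14% of all tested genes had a lower log2 ratio. Its gene overlaps MBLAC2, which had a ratio on the same side of 1, at 0.662 (0.563 to 0.779), with 367 and 259 counts. The share of reads from each of these genes cannot be told apart, which also limits the values of POLR3G relative to POLR3GL given below.

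POLR3GL encodes RPC7 beta, the alternative form that takes the same place in the enzyme and is widely expressed in differentiated tissue. It was at 7.15 FPKM (312 counts) in the DMSO and 6.64 FPKM (310 counts) in the treated library, a ratio of 0.933 (0.794 to 1.09) whose interval held 1. By level per length, POLR3G made up 47.4% of the pair in the DMSO and 22.5% in the treated library. The quotient of POLR3G to POLR3GL was 0.900 and then 0.291, which is 0.323 times as high (0.259 to 0.403). This quotient is taken within each library and does not depend on how libraries are scaled. By raw counts, which favour the longer POLR3G transcript, the share was 70.3% (exact binomial interval 67.4 to 73.0) and 43.3% (39.1 to 47.6). The summed level of the pair was 13.6 FPKM in the DMSO and 8.57 FPKM in the treated library.

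**Figure D3:**
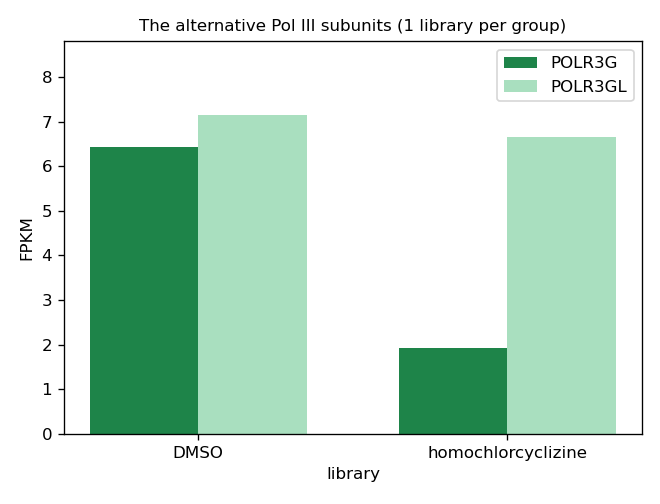
FPKM of POLR3G (dark bars) and POLR3GL (light bars) in the DMSO and the homochlorcyclizine library, 1 library per group. The 2 genes are at 6.43 and 7.15 FPKM in the DMSO library and at 1.93 and 6.64 FPKM in the treated library.

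The partners of POLR3G in the trimer had ratios closer to 1. POLR3C was at 18.4 and 19.1 FPKM (ratio 1.04, 0.971 to 1.11) and POLR3F at 20.1 and 16.6 FPKM (ratio 0.827, 0.767 to 0.891). POLR3K, the zinc-ribbon subunit that serves RNA cleavage and termination (chromosome 16, 46407 to 53608), was at 8.77 FPKM (459 counts) in the DMSO and 3.68 FPKM (206 counts) in the treated library. Its ratio was 0.421 (0.356 to 0.498). RefSeq places no gene across POLR3K.

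Of the catalytic pair, POLR3B had a ratio of 0.631 (0.592 to 0.673) at 13.7 and 8.58 FPKM, and POLR3A one of 0.800 (0.749 to 0.854) at 7.87 and 6.28 FPKM. POLR3D and POLR3E form the TFIIF-like dimer of this enzyme. POLR3D had the highest ratio of the class, 1.23 (1.15 to 1.32), at a low level of 6.47 and 7.93 FPKM, and POLR3E was at 18.0 and 16.2 FPKM (ratio 0.903, 0.854 to 0.954). CRCP, a further subunit of this enzyme, does not carry a POLR symbol and was added after the other values were seen, with a ratio of 1.04 (0.994 to 1.09) at 34.7 and 35.9 FPKM.

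The 5 subunits common to all enzymes were all below 1 (all tested genes 51.1%). Their median log2 ratio was -0.41, with a summed level of 273 FPKM in the DMSO and 201 FPKM in the treated library. POLR2L, a small zinc-binding subunit (chromosome 11, 839721 to 842529), was at 73.3 FPKM (2449 counts) and 41.4 FPKM (1478 counts), a ratio of 0.567 (0.531 to 0.605), the lowest of the class. POLR2E was at 48.9 and 35.3 FPKM (ratio 0.724, 0.695 to 0.755). Its gene overlaps ARHGAP45, whose ratio was 2.11 (1.97 to 2.26), opposite in direction. POLR2F was at 30.3 and 22.8 FPKM (ratio 0.753, 0.705 to 0.805), POLR2K at 62.3 and 50.3 FPKM (ratio 0.811, 0.763 to 0.862) and POLR2H at 57.8 and 51.1 FPKM (ratio 0.886, 0.842 to 0.933).

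The pair common to I and III went in different directions. POLR1C and POLR1D form the assembly dimer of these enzymes, the counterpart of POLR2C and POLR2J, and variants of both genes are known in Treacher Collins syndrome. POLR1D (chromosome 13, 27620743 to 27667411) was at 36.1 FPKM in the DMSO and 42.3 FPKM in the treated library, a ratio of 1.18 (1.12 to 1.24). POLR1C (chromosome 6, 43517089 to 43562407) was at 6.83 and 5.27 FPKM, a ratio of 0.774 (0.704 to 0.851). The quotient of POLR1D to POLR1C was 5.28 in the DMSO and 8.03 in the treated library, 1.52 times as high (1.36 to 1.70). Both genes overlap a coding neighbour with a ratio on the same side of 1, LNX2 at 1.11 (1.04 to 1.18) for POLR1D and XPO5 at 0.718 (0.679 to 0.759) for POLR1C, so the share of reads from each cannot be told apart.

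Shared and private subunits as groups did not stand far apart. The 7 shared genes had a median log2 ratio of -0.37 and the 23 private ones of -0.33. By mean the order was the reverse, at -0.33 for the shared and -0.44 for the private genes. Counted as enzymes with their shared subunits, the 13 genes of polymerase I had a median of -0.41, the 12 of polymerase II of -0.35 and the 17 of polymerase III of -0.30. The means of these sets were -0.47, -0.36 and -0.39, so the order of II and III depended on the measure. These sets overlap in the shared genes.

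Subunits in the same place of the different enzymes were then set side by side. The largest subunits POLR1A, POLR2A and POLR3A had ratios within a narrow span, from 0.800 to 0.866. At the second largest subunit the enzymes differed more. The treated-to-control ratio of POLR1B was 0.684 times (0.640 to 0.730) and that of POLR3B 0.623 times (0.580 to 0.669) that of POLR2B. At the zinc ribbon the quotient of the ratios of POLR1H and POLR2I was 1.00, with a wide interval (0.812 to 1.24), while that of POLR3K to POLR2I was 0.545 (0.443 to 0.670). At the assembly dimer the quotient of POLR1C to POLR2C was 0.961 (0.862 to 1.07), an interval that held 1, and POLR1D stood above POLR2J by 1.64 (1.48 to 1.83), where POLR2J may share reads with its copies. At the stalk the quotient of POLR1F to POLR2G was 0.893 (0.810 to 0.985). These intervals are exact conditional 95% intervals of an odds ratio on counts and cover counting error only.

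**Figure D4:**
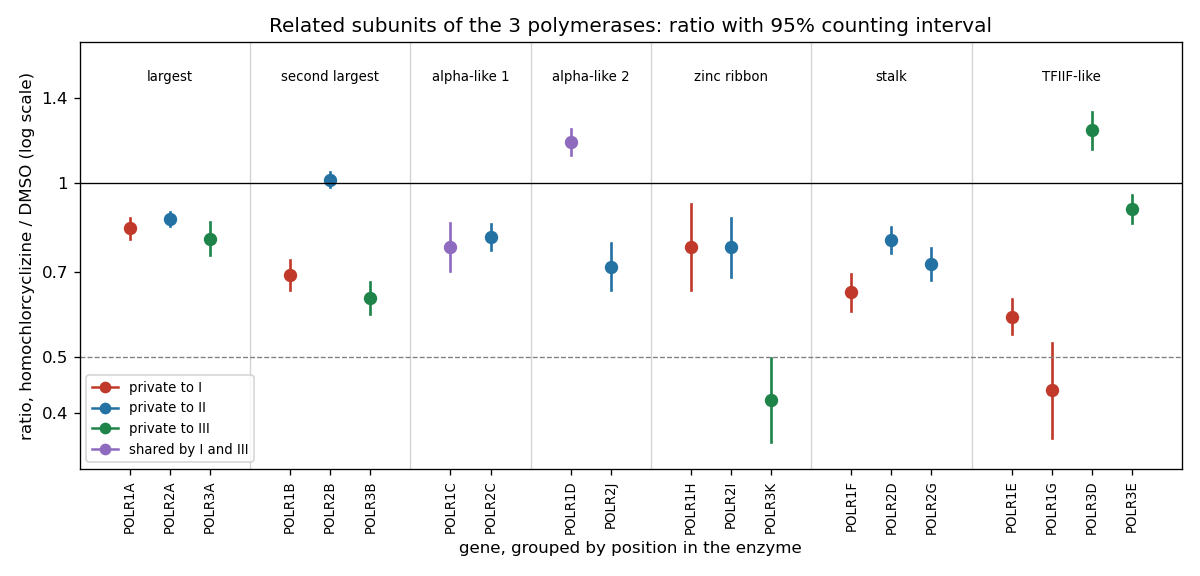
Ratio of the homochlorcyclizine to the DMSO library (vertical log axis, dashed line at 2-fold lower) of related subunits, grouped by their place in the enzyme and coloured by class, with 95% counting intervals. The largest subunits lie together between 0.800 and 0.866, whereas POLR2B lies apart from POLR1B and POLR3B, POLR3K apart from POLR1H and POLR2I, and POLR3D apart from POLR1E and POLR1G.

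The genes that work with the polymerases were taken from 7 lists, and the median log2 ratio was below 0 in 6 of them. Over all tested genes, 51.1% had a ratio below 1, and 5.10% were called lower and 5.81% higher at 2-fold. Of 7 measured polymerase I factors 5 were below 1 and none was called, with a median log2 ratio of -0.32. TAF1A, a subunit of the promoter selectivity factor, had a ratio of 0.583 (0.502 to 0.676), UBTF, which binds ribosomal DNA, one of 0.707 (0.678 to 0.737) and TTF1, the termination factor, one of 0.749 (0.678 to 0.827). RRN3, which joins polymerase I to its promoter, was above 1 at 1.26 (1.20 to 1.32).

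Of 16 polymerase III factors 13 were below 1 and none was called, with a median of -0.26. GTF3A, which binds the 5S gene, was at 86.5 FPKM in the DMSO and 54.1 FPKM in the treated library (ratio 0.628, 0.600 to 0.657). SNAPC5 had a ratio of 0.657 (0.603 to 0.716), and the TFIIIC subunits GTF3C5 and GTF3C2 had ratios of 0.709 and 0.788. MAF1, the repressor of polymerase III, which was chosen after its value was seen, had a ratio of 1.10.

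The general factors of polymerase II had a median of -0.22, with 13 of 18 below 1, and the TAF subunits of TFIID one of -0.24, with 8 of 13 below 1. None was called in either list. The lowest were TAF5 at 0.525 (0.459 to 0.600) and GTF2H2, a TFIIH subunit, at 0.598 (0.543 to 0.659). Other general factors with low ratios were the TFIIH helicase ERCC2 at 0.678, the CDK7 partner CCNH at 0.691 and the TFIIA subunit GTF2A2 at 0.734. In the TFIID list TAF5 was followed by TAF4 at 0.745, TAF6 at 0.761 and TAF12 at 0.805. Elongation and pausing factors were centred on 1. Of 23, 11 were below 1 and 12 above, and the median was 0.03. AFF4, the scaffold of the super elongation complex, was at 13.4 and 24.5 FPKM (ratio 1.83, 1.77 to 1.90), and the tail phosphatase CTDP1 had a ratio of 1.32. RTF1 and LARP7, which holds the 7SK RNA, were at 0.751 and 0.754.

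Genes that assemble and import the polymerases had a median of -0.35, with 12 of 14 below 1. RUVBL1, an ATPase of the R2TP chaperone complex, was at 71.6 FPKM in the DMSO and 35.5 FPKM in the treated library. Its ratio was 0.498 (0.475 to 0.521). It was the only gene of the 7 lists called at 2-fold, 7.14% of its own list, where 5.10% of all tested genes were called lower. Its partner RUVBL2 was at 83.0 and 48.9 FPKM (ratio 0.591, 0.566 to 0.617). GPN3, a GTPase of polymerase II import, had a ratio of 0.532 (0.493 to 0.573) and DNAAF10 one of 0.667 (0.593 to 0.749). Both ATPases also serve other complexes.

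The mitochondrial transcription genes, which serve the separate single-subunit polymerase of that organelle, were the tightest list. All 5 were below 1, and none passed 1.5-fold, where 14.1% of all tested genes were lower and 14.0% higher. The median was -0.56, with a range from -0.58 to -0.51. POLRMT, the mitochondrial polymerase, was at 18.9 and 12.9 FPKM (ratio 0.682, 0.643 to 0.723), TFAM at 33.9 and 22.9 FPKM (ratio 0.676), TFB2M at 32.6 and 22.0 FPKM (ratio 0.678) and TEFM at 13.4 and 8.90 FPKM (ratio 0.668). MYC, a transcription factor known to promote transcription by polymerases I and III, was named whatever its value and had a ratio of 1.09 (1.06 to 1.12).

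**Figure D5:**
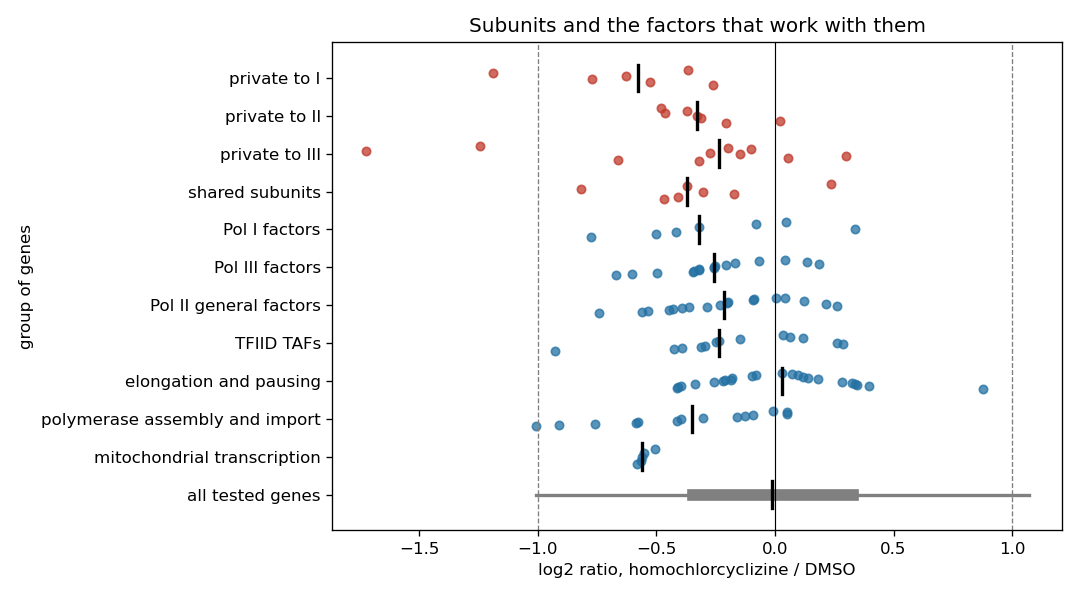
Log2 ratio of homochlorcyclizine to DMSO (horizontal axis, dashed lines at 2-fold) of the polymerase subunits by class (red) and of the factors in 7 lists (blue), 1 point per gene with a black bar at each median. The grey bar for all tested genes spans the middle of the distribution (thick, quartiles from -0.35 to 0.33) and its percentiles 5 to 95 (thin, -1.01 to 1.07), and the class medians lie to the left of its median of -0.01.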

How the data were processed

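The authors deposited raw counts per gene for both libraries and FPKM values in separate tables. The build was hg38 per the submitters' processing notes. The sources used here name no aligner, counter, strand setting or annotation. Columns were tied to samples by the labels' descriptions. The ratio of FPKM values differed from that of counts per library total by at most 3.13e-05% in genes counted in both libraries, so FPKM serves here only for levels per length.

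Counts were scaled with TMM factors (edgeR 4.0.16, R 4.3.3), without a test, since each group is 1 library. Ratios are of scaled CPM, log2 ratios carry a prior count of 1, and intervals are exact 95% Clopper-Pearson intervals given the summed count (Python 3.11.15, scipy 1.17.1). PCR copies are not independent molecules. Genes needed a mean of 1 CPM. Of the members, 32 are named, and 1 that enters the counts and medians is not reported here. From each list the called genes and the 4 with the largest absolute log2 ratio are named, and MYC in any case. ALB, AFP and the other markers named here served as a check of the label. The members and lists were chosen with earlier results of these data known. On simulated counts with Poisson error the 2-fold rule recovered 100% of 200 genes changed 3-fold and 53% changed exactly 2-fold, in 12337 and 12341 genes. The simulated counts hold no spread between cultures, so they cannot show how the rule performs across cultures. Coordinates are from RefSeq on GRCh38.p14, the assembly of hg38, where all 33 symbols matched. The motifs, the related pairs and the overlap with other genes were chosen after the counts were seen. Where the promoter table had several entries for a symbol, the first was used.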

Additional observations from a re-analysis of the deposited data

How the results depend on the processing

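The 33 member log2 ratios were recomputed under 6 alternatives: library totals only, DESeq2 1.42.0 size factors, upper-quartile factors, a prior count of 5, the deposited FPKM values, and removal of the trend of the ratio with level. All 198 values stayed within the counting interval of the gene, and 26 of the 30 subunits were below 1 under each of the 6. Library totals, DESeq2 factors and upper-quartile factors each shift all genes by the same amount. The FPKM ratio repeats the library totals apart from the prior count. None of the 6 measures the spread between cultures. The 3 members called lower stayed 3 in number under these alternatives and under either other filter (none, or 5 CPM). The count was 7 with a threshold of 1.5-fold. Without a filter on level 1 member, POLR2J2, was called higher. The polymerase III median was -0.24 and its mean -0.43, since 2 of its 10 genes lie far below the others. With raw counts the POLR3G share was 70.3% in the DMSO and 43.3% in the treated library, because the transcripts differ in length. The other class and list medians moved by less than the counting interval of their middle genes. No paired analysis was possible because each group is 1 library and the result comes from no test. For the same reason no replicate could be left out, and the spread between cultures was not measured. Depth limits POLR2J2, POLR2J3 and POLR2M, whose intervals are the widest of the members.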
